A study of Mus musculus with 2 samples.

Results

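The 121 genes described here carry names of the form Gm followed by a number, which mouse annotation gives to predicted genes and pseudogenes that have no assigned name. They were selected on their read counts, as the Gm-named genes of known class with 20 or more reads over both libraries together, out of 7516 known genes that reached that number. Gastrocnemius, a fast skeletal muscle of the hind limb, was taken from male B6CASTF1/J mice aged 10 days, which are F1 hybrids of the B6 and CAST strains. Total RNA was sequenced as long reads in 2 libraries, replicate 1 and replicate 2, from 2 µg of RNA each with spiked-in control RNAs. Per the labels the libraries came from separate animals, and no treatment is named, so the series has 1 group and no control. The counts chose the members, and their levels are therefore given as a description, with no test.

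Most Gm names stand for loci found by computer. Many are processed pseudogenes, which arise when a spliced mRNA is copied back into DNA and inserted elsewhere in the genome, so that the copy has no introns and keeps the sequence of the mRNA it came from. Genes that are transcribed at a high level in the germ line, such as those for ribosomal proteins and glycolytic enzymes, have left many such copies. Other Gm names stand for long noncoding RNAs, transcripts antisense to a gene, or models that join the exons of neighbouring genes. A long read can follow a transcript from end to end, so its splice junctions can separate a spliced gene from an intronless copy, while a read without junctions is placed by its bases alone.

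Of 26736 Gm-named genes in GENCODE M21, 25224 had no read in either library and 1512 had 1 or more. Of those, 698 had exactly 1 read, and 1391 had 1 to 19 reads. The 121 members had 20 to 3449 reads each. Just inside the threshold, at 20 reads, stood Gm11973, Gm14403, Gm28437, Gm2956, Gm37401 and Gm6736, and just outside it, at 19 reads, stood Gm12918, Gm15427, Gm37240 and Gm49396. The libraries held 1145490 mouse reads in replicate 1 and 941841 in replicate 2, spike-in reads left out, and values below are reads or counts per 1000000 mouse reads (CPM). A count of 0 in a library allows up to 3 reads, which is 2.62 CPM for replicate 1 and 3.19 CPM for replicate 2. This limit and the intervals below cover counting error only. The 6 skeletal muscle markers stand for skeletal muscle and cannot single out gastrocnemius. Together they had 261061 CPM in replicate 1 against 259138 CPM in replicate 2. Single muscle markers differed more than that sum, as Myh4, a fast myosin heavy chain gene, had 23388 CPM in replicate 1 against 8871 CPM in replicate 2. The 3 fibroblast markers summed to 18575 and 10908 CPM in replicate 1 and in replicate 2, although Dcn among them had 512 and 611 CPM. The 3 Schwann cell markers summed to 1678 and 1277 CPM, the 2 red cell markers to 317 and 674 CPM, and the 3 immune markers to 36.7 and 41.4 CPM.

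The Gm-named genes were short and mostly unspliced in these libraries. The transcript model with the most reads, called the main model below, had 1 exon in 92 of the 121 members (76.0%), against 12 of 102 genes with RIKEN clone names (11.8%) and 372 of all 7395 genes with other names (5.03%). Another 14 members had a main model of 2 exons, and the longest chain of exons was the 15 of Gm49336. Reads on models of 1 exon made up 92.9 ± 1.45% of the members' reads and 3.34 ± 0.0022% of the reads of the other genes (SD, n = 2 libraries). The median length of the main model was 807 nt in the members, 1973.5 nt in the RIKEN-named genes and 2649 nt in all genes with other names. Main models under 500 nt were found in 41 members (33.9%) and in 93 of the other genes (1.26%). These lengths are those of the models, which for annotated transcripts are the annotation's own, and the lengths of the reads were not used.

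The novelty classes also differed in composition. Annotated transcripts took 94.1 ± 1.30% of the members' reads and 74.5 ± 3.04% of the reads of the other genes. Every read was on an annotated transcript in 67 members (55.4%) and in 282 other genes (3.81%), and 65 members (53.7%) had a single transcript model, against 215 other genes (2.91%). The main model was annotated in 94 members (77.7%), a lower share than in the other genes (88.6%). It was incomplete in its junctions (ISM) in 10 members (8.26% against 3.54%). It was genomic (overlapping the gene without matching its junctions) in 13 (10.7% against 2.12%). A new combination of known splice sites (NIC) was the main model in 3 (2.48% against 4.34%). A model with a new splice site (NNC) was the main model in 1 (0.826% against 1.42%). With each member given the same weight, the annotated share of the members' reads was lower, at 75.6%.

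**Figure D1:**
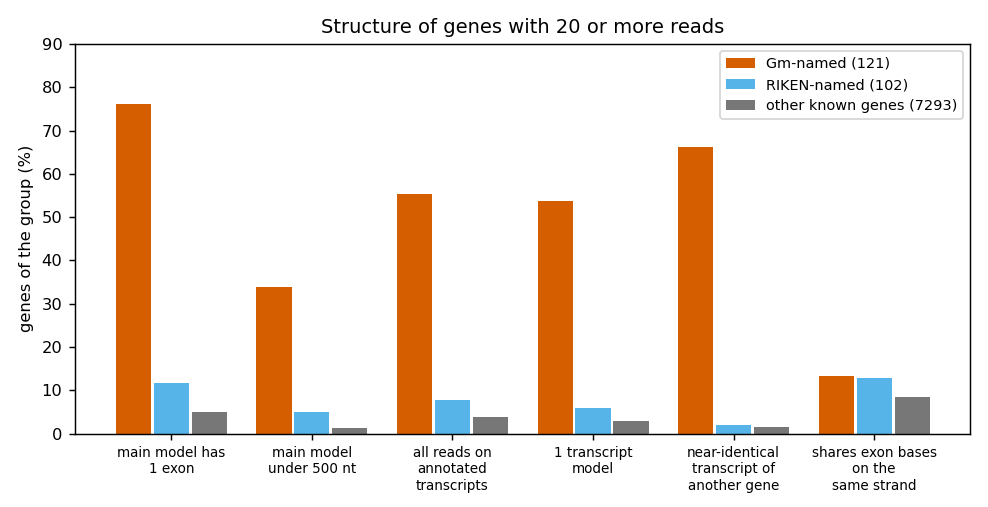
Percent of genes with each feature among 121 Gm-named genes, 102 RIKEN-named genes and 7293 other known genes, each with 20 or more reads. The Gm-named bars stand highest for 1-exon main models (76.0%), short models (33.9%) and near-identical transcripts of another gene (66.1%), and lie near the RIKEN-named bar for exon bases shared on the same strand (13.2%).

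By annotated gene type, 55 members were processed pseudogenes, 9 transcribed processed pseudogenes and 5 unprocessed pseudogenes. A further 24 were annotated as protein coding, 11 as antisense, 10 as lincRNA and 3 as processed transcript, and pseudogene, misc RNA, sense intronic and miRNA had 1 member each. All types together took 11321 reads in replicate 1 and 8435 in replicate 2, which is 0.988% and 0.896% of the mouse reads. The processed pseudogenes alone summed to 7771 ± 719 CPM of the 9419 ± 656 CPM of all members (SD, n = 2). Protein-coding members summed to 665 ± 77.5 CPM, transcribed processed pseudogenes to 395 ± 8.56 CPM, antisense members to 234 ± 45.1 CPM and lincRNAs to 178 ± 31.0 CPM. The 5 members with the most reads held 58.8% of the members' reads in replicate 1 and 49.2% in replicate 2.

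**Figure D2:**
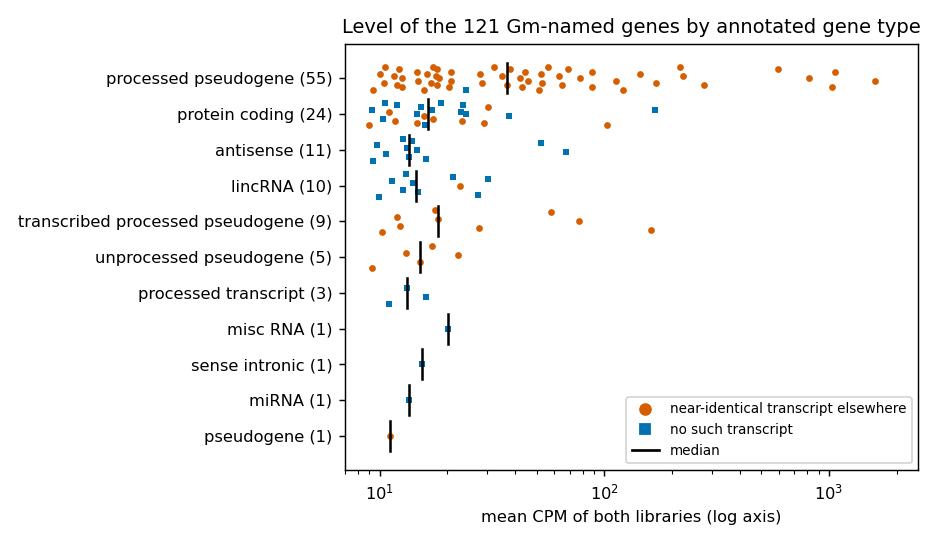
Mean CPM over both libraries (log axis) of each of the 121 Gm-named genes by annotated gene type, with a line at the median of each type. The 5 highest points, above 500 CPM, are processed pseudogenes, and circles, which mark a near-identical transcript elsewhere, make up nearly all of the processed pseudogene row, while squares make up the antisense row.

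A near-identical transcript of another gene existed for most members. The annotated transcript of each member was compared with the transcripts of GENCODE M21, and 80 of 121 members (66.1%) matched a transcript of a gene elsewhere at 95% identity or more over 90% or more of their length. The same held for 109 of the 7395 other genes (1.47%) and for 2 of the 102 RIKEN-named genes (1.96%). This comparison, and the grouping that follows from it, was added after the counts had been seen. For 78 of the 80 members the match included a named protein-coding gene of the nuclear or mitochondrial genome, 67 different genes in all. The median identity to the closest named gene was 99.8%, and 25 members were identical to it over their whole length. The 78 members held 17837 reads, 90.3% of all member reads. How the authors' processing places a read that matches both copies is not given in the sources used here, so the counts of these 78 members and of their named genes are uncertain.

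How little sequence separates the copies is shown by stretches of 61 bases from the coding sequence, taken from the GENCODE M21 transcripts (mm10) and printed 5′ to 3′, with capitals where the copy and the named gene differ. Gm12671 (chr4:91851668-91852669) was identical to the Gapdh coding sequence over all 1002 bases, so the first 61 bases are the same in both:
Gm12671: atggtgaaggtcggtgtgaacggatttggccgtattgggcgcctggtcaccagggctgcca
Gapdh: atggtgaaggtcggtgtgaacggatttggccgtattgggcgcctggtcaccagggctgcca
Gm12033 (chr11:20335012-20336013) differed at 1 of 1002 bases, shown within coding bases 474 to 534:
Gm12033: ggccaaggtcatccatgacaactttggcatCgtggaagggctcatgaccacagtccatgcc
Gapdh: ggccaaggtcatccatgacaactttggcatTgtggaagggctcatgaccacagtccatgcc
Gm5559 (chr5:95861714-95862715) also differed at 1 base, but at another place, within coding bases 355 to 415:
Gm5559: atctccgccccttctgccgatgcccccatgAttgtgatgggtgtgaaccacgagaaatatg
Gapdh: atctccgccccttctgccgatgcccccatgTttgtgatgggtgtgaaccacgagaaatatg
Gm15459 (chr5:5781615-5783555) differed from the Hspa8 coding sequence at 5 of 1941 bases, and 1 of those lies within coding bases 84 to 144:
Gm15459: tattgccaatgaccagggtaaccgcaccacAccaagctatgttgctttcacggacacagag
Hspa8: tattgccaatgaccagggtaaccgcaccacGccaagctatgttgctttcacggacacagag
Gm12338 (chr11:75599763-75599954) was identical to the Cox7c coding sequence over 192 bases, of which the first 61 are shown:
Gm12338: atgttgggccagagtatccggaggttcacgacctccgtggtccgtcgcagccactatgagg
Cox7c: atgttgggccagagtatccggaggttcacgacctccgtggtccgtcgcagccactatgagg

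Gapdh encodes the glycolytic enzyme glyceraldehyde-3-phosphate dehydrogenase, which fast muscle holds at a high level, and 4 of the 5 members with the most reads were copies of it. Gm12671 had 2351 reads in replicate 1 and 1098 in replicate 2, and ranked at the percentile 99.4 of all 7516 genes by mean CPM. Gm12033 had 1470 and 792 reads, and Gm5559 (chromosome 5) had 1093 and 633. Gm7336 (chr7:51746647-51747878) had 696 and 545 reads, and Gm13394 (chr2:28933610-28934609) had 290 and 184. All of these reads were on the single annotated exon of each copy, and replicate 1 was the higher of the libraries for each of the 5. Gapdh itself, by contrast, was listed with 62 reads in replicate 1 and 44 in replicate 2.

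Together the 9 members closest to Gapdh took 5981 reads in replicate 1 and 3308 in replicate 2, or 5221 and 3512 CPM, while Gapdh stood at 54.1 and 46.7 CPM. Over the 68 loci that matched the Gapdh coding sequence at the same limits, the 9 members held 98.7% of the reads in replicate 1 (exact 95% interval 98.40 to 98.98) and 98.5% in replicate 2 (98.0 to 98.8). Of the 58 remaining loci, 7 had reads, 16 in replicate 1 and 8 in replicate 2. Among the 9 members, loci of equal identity to Gapdh differed in their reads. Gm10359, identical to Gapdh like Gm12671, had 27 and 16 reads, and Gm2606 and Gm14760, with 1 mismatch each like Gm12033, had 14 and 11 reads and 17 and 14 reads. Gm13292, with 5 mismatches, had 23 and 15 reads, and 3 of its 38 reads were on its annotated transcript.

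The reads named Gapdh differed in structure from those of its copies. Of 106 Gapdh reads, 100 were spliced, and 22 were on an annotated Gapdh transcript. Of the 9 copies, 8 had all of their reads on 1 exon, and Gm13292 was the exception. The 68 loci together reached 5289 CPM (replicate 1) and 3567 CPM (replicate 2), of which the Gapdh share was 1.02% and 1.31%.

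**Figure D3:**
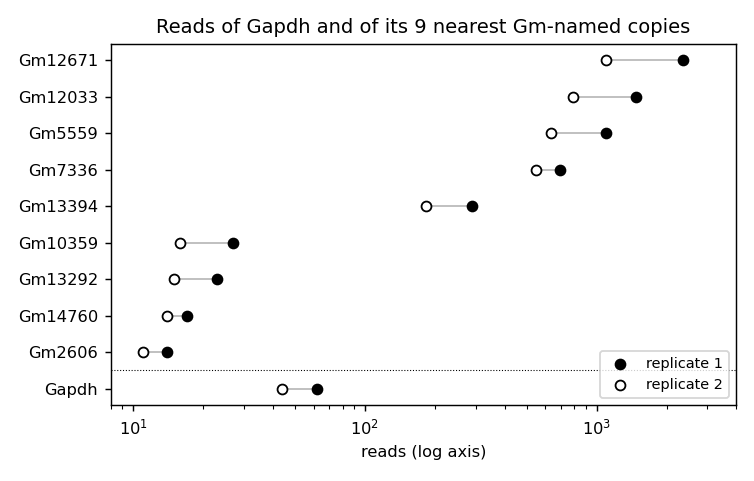
Reads (log axis) in replicate 1 (filled) and replicate 2 (open) of the 9 Gm-named genes closest to Gapdh and, below the dotted line, of Gapdh. Gm12671, Gm12033, Gm5559, Gm7336 and Gm13394 lie above Gapdh in both libraries, the other 4 below it, and the read count is higher in replicate 1 in every row.

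Outside the Gapdh copies, most named genes had more reads than their Gm-named copy. Over the 78 pairs the member took a median 33.1% of the pair's reads, 16 members exceeded the named gene (5 of them Gapdh copies), and 68 of the named genes had 90% or more of their reads spliced. The median spliced share of the named genes was 99.4%, and 60 of the 78 members had all of their reads on 1 exon. Each read stands for 1 transcript, so reads were not divided by length in these shares. Only the member and its closest named gene enter a share, and other matching loci are left out.

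Gm15459 is a copy of Hspa8, the constitutive heat shock cognate chaperone. It had 1045 reads in replicate 1 and 1086 in replicate 2, beside 1074 and 1163 for Hspa8, and so took 48.8 ± 0.73% of the pair's reads (SD, n = 2). Of 2237 Hspa8 reads, 2236 were spliced, whereas 2127 of the 2131 reads of Gm15459 were on its single annotated exon. Gm10123 (chr9:96895658-96896147), identical over 490 nt to Ppia, which encodes cyclophilin A, had 279 and 295 reads beside 337 and 306. Gm10698, identical to a stretch of Tmed2, a cargo receptor of early secretion, had 112 and 120 reads beside 442 and 473. In these pairs the copy and the spliced gene were both well covered, and the split between them was close in the libraries.

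Ribosomal protein genes were the largest group by number, with 22 members closest to 21 genes, whose levels added up to 1118 CPM for replicate 1 and 1151 CPM for replicate 2. Gm8172 (chrX:69605496-69606245), closest to Rps6 of the small subunit, had 166 and 185 reads beside 161 and 170. Gm15500 (chr7:114705217-114706235), identical to Rpl5 of the large subunit, had 185 and 152 reads beside 299 and 276. Gm14303 (chr2:172509521-172509691), identical to Rps29 over 171 nt, had 154 and 101 reads beside 184 and 119. The member was the higher of the pair for 5 of the 22: Gm8172, Gm10243 (Rpl35a), Gm13370 and Gm10163 (both Rpl21) and Gm12191 (Rpl30). Gm13370 took 84.1 ± 1.31% of its pair's reads and Gm10243 took 78.9 ± 7.34% (SD, n = 2). Transcripts of 57 genes matched Gm13370 and those of 14 matched Gm10243, and the closest were those of Gm10240 and Rpl35a-ps3. At the other end, Gm8730, with 12 mismatches to Rplp0, had 22 and 21 reads beside 1213 and 881, a share of 2.05%.

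Respiratory chain and ATP synthase genes of the nucleus gave 9 members, closest to 8 genes, and no member exceeded its named gene. The group's levels added up to 663 CPM for replicate 1 and 902 CPM for replicate 2. Gm12338, the copy of the cytochrome c oxidase subunit gene Cox7c, had 196 reads in replicate 1 and 246 in replicate 2, beside 415 and 464 for Cox7c. Gm14539 (chrX:20581141-20581314), identical over 174 nt to Usmg5, which encodes a small ATP synthase subunit, had 137 and 159 reads beside 301 and 297. Gm11273 (chr13:21501029-21501418), annotated as protein coding and closest to the cytochrome c oxidase subunit gene Cox5b, had 102 and 109 reads beside 432 and 498. Gm10231 (chr17:5816200-5816640) and Gm10175 on chromosome 7 were both identical over 441 nt to the ATP synthase subunit c gene Atp5g2, with 111 and 75 reads and with 87 and 74 reads. Atp5g2 had 160 and 109 reads, of which 61.7% were spliced, the lowest spliced share of the group.

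Another 4 members were copies of mitochondrial DNA, which encodes its genes without introns. They lay side by side on chromosome 1: Gm28437 (24613189 to 24613971, closest to mt-Co3), Gm10925 (24613974 to 24614651, mt-Atp6), Gm28661 (24614885 to 24615565, mt-Co2) and Gm29216 (24615706 to 24616197, mt-Co1). Gm10925 had 27 reads in replicate 1 and 10 in replicate 2, Gm29216 had 20 and 12, Gm28661 had 13 and 14, and Gm28437 had 14 and 6. These numbers were close to those listed for 3 of the mitochondrial genes themselves: mt-Atp6 had 20 and 18 reads, mt-Co2 had 15 and 11 and mt-Co3 had 14 and 10, while mt-Co1 had 247 and 297. Neither the copy nor the mitochondrial gene is spliced, so splicing could not separate them here. Of the 4, 3 were identical to the mitochondrial gene over their whole length.

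The other 34 pairs covered 33 genes of mixed function and held 1932 CPM for replicate 1 and 2383 CPM for replicate 2, of which Gm15459 gave 912 and 1153 CPM. Gm12138 on chromosome 11, with 9 mismatches to the aldose reductase gene Akr1b3, had 90 and 92 reads beside 144 and 112. Gm15801, identical to a stretch of the tyrosine phosphatase gene Ptp4a1, had 58 and 36 reads beside 3 and 4, and so took 92.5 ± 3.59% of the pair's reads (SD, n = 2). Gm1821, closest to the polyubiquitin gene Ubb, stood at the other extreme with 9 and 15 reads beside 3005 and 3235. The zinc finger members Gm14325 and Gm14326 of chromosome 2 had spliced main models, of 3 and 4 exons. The main model of Gm1821 was also spliced, with 2 exons, in the genomic class. Gm14325 had 31 and 32 reads beside 2 and 1 for Zfp931, and Gm14326 had 13 and 17 reads beside none for Zfp968.

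**Figure D4:**
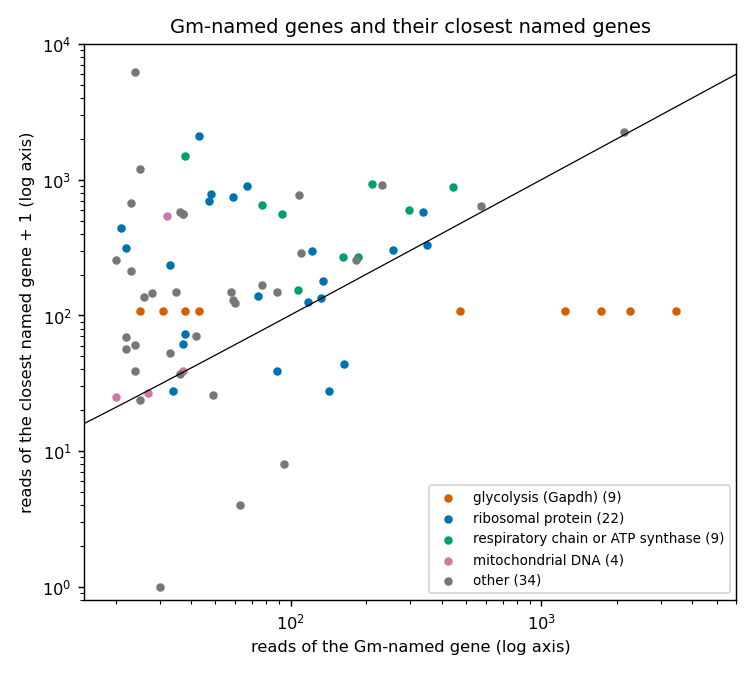
Reads of each of 78 Gm-named genes over both libraries against the reads of its closest named gene plus 1 (both axes log), coloured by the role of the named gene, with a line of equal reads. The 9 Gapdh copies share 1 height at 106 reads and spread from 25 to 3449 along the horizontal axis, and 62 of the 78 points lie at or above the line.

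The 41 members without such a match held 978 reads in replicate 1 and 896 in replicate 2. They were longer, with a median main model of 1301 nt against 629 nt for the 80 members with a match, and 21 of the 41 had a main model of 1 exon. Annotated transcripts took 51.0 ± 4.09% of their reads and genomic models 21.5 ± 0.478% (SD, n = 2). Of the 41, 14 shared exon bases with another gene on the same strand (34.1%), against 16 of all 121 members (13.2%) and 631 of the 7395 other genes (8.53%). For those 14, a read that lies only on the shared bases could have been counted to either gene. The opposite strand held another known gene for 24 of the 41, and for 41 of the 121 members (33.9%) against 3320 other genes (44.9%).

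Several protein-coding members were models that share exon bases with named neighbours. Gm16286 on chromosome 18 had the highest level of the 41, with 170 reads in replicate 1 and 177 in replicate 2, and 304 of these 347 reads were on 1 annotated transcript of 4 exons and 1683 nt. It shares exon bases with Txnl4a, a gene for a spliceosome component, which had 62 and 28 reads. Gm20388 spans from Usp10, a gene for a ubiquitin protease, to Galnt2, a gene for a glycosyltransferase, over chr8:119910841-124345722, and had 41 and 37 reads. Of its 78 reads, 71 were on genomic models and none on an annotated transcript, beside 87 and 62 reads for Usp10 and 102 and 57 for Galnt2. The member Gm29773, with 62 and 76 reads, also lies within the span of Gm20388 on the same strand. Gm49336, which shares exon bases with Nupl1, had 31 and 18 reads, 36 of them on its annotated 15-exon transcript of 3913 nt, beside 6 and 2 for Nupl1. Gm45713, which shares exon bases with the ribosomal protein gene Rpl13a, had 21 and 18 reads, all of the incomplete class, beside 273 and 194 for Rpl13a. Gm16286 and Gm49336 thus had most reads on their own annotated transcripts, and Gm20388 and Gm45713 had none there.

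The 11 antisense members had few reads on annotated transcripts, a mean of 17.0% over the libraries. Gm29773 (chr8:123896273-123900620), opposite the nuclear pore gene Nup133, had 62 reads in replicate 1 and 76 in replicate 2. These were spread over 57 models, with 23 reads on annotated transcripts and 39 on incomplete ones. New combinations of known splice sites held 50 reads, and models with a new splice site held 26. Gm20659 (chr11:101971143-101971859), opposite the phosphatase gene Dusp3, had 38 and 67 reads, and Gm13008 (chr4:136003566-136010937), opposite the transcription elongation gene Eloa, had 25 and 7. All reads of Gm20659 and of Gm13008 were on genomic models of 1 exon. Gm15417, opposite Zbtb7b, differed from these with 32 of its 34 reads on annotated spliced transcripts of 2 exons. Whether the counting used the strand of the read is not given in the sources used here, so reads of an antisense member and of the gene opposite may not be told apart, least of all where no junction is present.

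Among the lincRNAs, Gm42418 (chr17:39846958-39848788) had 44 reads in replicate 1 and 21 in replicate 2. Gm26917 (chr17:39843013-39846341) lies just before it on the same strand, at a locus known to carry ribosomal RNA sequence, and had 28 and 5 reads. AY036118, opposite Gm42418, had 144 and 26 reads, and CT010467.1, also opposite, had 0 in both libraries. The 3 of these genes that had reads thus had more of them in replicate 1. Gm43672 had 30 and 27 reads, 56 of them on its annotated transcript of 1 exon. By contrast, Gm10605 had 23 and 21 reads, 31 of them on incomplete models and 9 on models with a new splice site. Some members are annotated as short RNAs inside the exon of a longer gene, and whether their reads were that short was not tested. Gm28006 (annotated at 122 nt) lies in Neat1, the noncoding RNA of paraspeckles, and had 29 and 14 reads beside 5 and 4 for Neat1. Gm47286 (annotated at 128 nt) lies in the linker histone gene H1fx and had 15 and 13 reads beside 1 and 2. The longest main models belonged to Gm21811 (5014 nt), Gm26699 (4407 nt), Gm14698 (4226 nt), Gm49336 and Gm4861 (3734 nt).

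Replicate 1 and replicate 2 were then compared gene by gene, with an exact two-sided binomial test of each gene's reads given its total, and Benjamini-Hochberg adjustment over all 7516 genes. The test compares those libraries and not conditions, since there is 1 group, and it does not include the spread between animals. A gene was called where the adjusted p was under 0.05 and the levels differed 2-fold or more, and 6 of the 121 members were called (4.96%), 2 of them higher and 4 lower in replicate 1. Over all genes tested, 2.75% were called, 1.92% as higher in replicate 1 and 0.838% as higher in replicate 2. The members' count of 6 is small, and it is read only beside that share. Without the limit on fold, 15 members (12.4%) passed the adjusted p, beside 9.11% of all genes, and 33 members (27.3%) had an unadjusted p under 0.05, beside 1494 of the 7395 other genes (20.2%).

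Gm26917 had 28 reads in replicate 1 and 5 in replicate 2, a log2 ratio of 2.20 (exact 95% interval 0.81 to 3.93, adjusted p = 0.0070 by the exact test). Gm21811, an unprocessed pseudogene on chromosome 8 with 41 of its 49 reads on unannotated spliced models, had 39 and 10 reads and a log2 ratio of 1.68 (0.65 to 2.85, adjusted p = 0.0083, exact test). These were the only members called higher in replicate 1. Gm20659 had 38 reads in replicate 1 and 67 in replicate 2, with a log2 ratio of -1.10 (-1.71 to -0.51, adjusted p = 0.0037, exact test). Gm10221, a copy of the ATP synthase subunit gene Atp5l, had 31 and 61 reads and a log2 ratio of -1.26 (-1.93 to -0.61, adjusted p = 0.0014, exact test). Both of these differences were near the 2-fold limit, and those of the next pair were larger. Gm6563, a copy of the mRNA export gene Sarnp, had 2 and 26 reads and a log2 ratio of -3.98 (-7.10 to -1.98, adjusted p = 8.7e-06, exact test). Gm6829, closest to Golga7, had no read in replicate 1 and 23 in replicate 2. With 3 reads taken as the limit in replicate 1, its log2 ratio was -3.22 (exact 95% upper limit -2.81, adjusted p = 6.8e-07, exact test). Of its 23 reads, 21 were on 1 unannotated model of 2 exons (ISM), and none were on its annotated transcript.

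The named partners of these last 3 copies had log2 ratios nearer to 0. Sarnp had 68 reads in replicate 1 and 77 in replicate 2 (log2 ratio -0.46), Golga7 had 108 and 102 (-0.20), and Atp5l had 270 and 286 (-0.37). The closest named gene of Gm21811, Cdh11, had 18 and 7 reads (log2 ratio 1.08), and so was higher in replicate 1 as Gm21811 was. The share of the pair's reads on the copy had exact 95% intervals that did not overlap between the libraries for 3 of the 78 pairs. These were Gm8116 with Carnmt1, Gm6563 with Sarnp and Gm6829 with Golga7. Pairs of other genes were not compared in this way, so the count has no background share beside it and is a description only. With each member's reads added to those of its closest named gene, an alternative chosen after the data were seen, 4 members were called. Over all genes tested, 2.77% were called in that setting. Of the 4, 3 were among the 6 (Gm20659, Gm21811 and Gm26917), and Gm15432, paired with 1810037I17Rik, was called only here. Gm10221, Gm6563 and Gm6829 were not called. The pipeline document cited in the labels is version 3.1 for replicate 1 and 3.0 for replicate 2, so that document, the animal and the marker differences above cannot be told apart in these calls.

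Across genes, levels in the libraries were less close for the members than for the other genes. The median absolute log2 ratio was 0.43 in the members and 0.34 in the other genes, and 102 members (84.3%) and 6845 other genes (92.6%) lay within 2-fold. Pearson's r of log2(CPM + 1) between the libraries was 0.871 over the 121 members and 0.939 over the 7395 other genes, and Spearman's rho was 0.746 and 0.909. These values are descriptions across genes, which are not independent replicates, and the median level of the members was lower (18.0 CPM against 31.6 CPM), so fewer reads stood behind each ratio. The 9 Gapdh copies combined had a log2 ratio of 0.57, but the copies differed: Gm12671 had 0.82 and Gm12033 had 0.61, while Gm7336 had 0.07 and Gm14760 had -0.0023. By comparison, Gm15459 had a log2 ratio of -0.34 and Hspa8 one of -0.40.

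**Figure D5:**
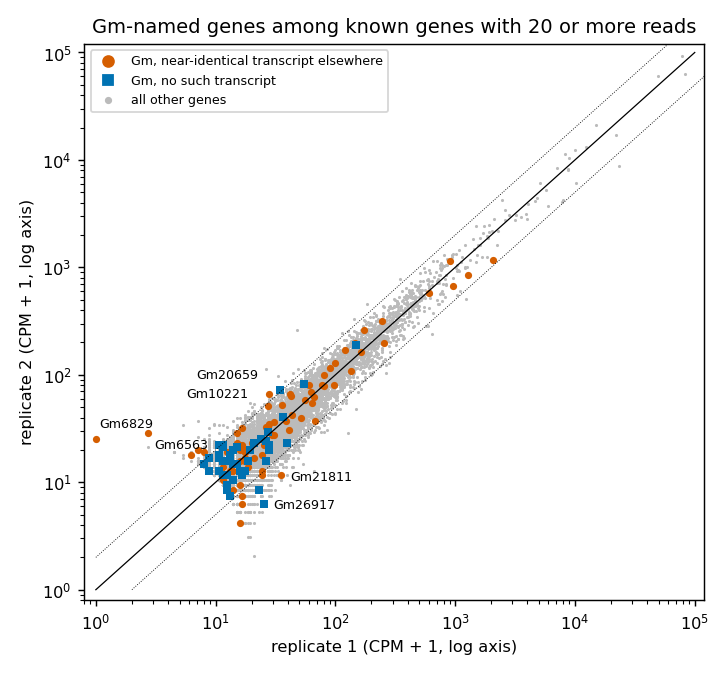
CPM + 1 in replicate 1 (horizontal) and replicate 2 (vertical), both on log axes, for 121 Gm-named genes over all other known genes with 20 or more reads (grey), with lines at equal levels and at 2-fold. The 6 called members are named: Gm26917 and Gm21811 lie below the lower 2-fold line, Gm6829, Gm6563, Gm10221 and Gm20659 above the upper one.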

How the data were processed

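Per the file headers and labels, the authors deposited, for each library, raw counts of long reads per transcript model, listing models with 1 or more reads, without normalization. Transcript annotations with TALON attributes, on mm10 and GENCODE M21, gave exons and novelty classes. The sources used here do not give the aligner, its version or whether strand was used.

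Counts of models were summed per gene. Spike-in models were left out. CPM is per 1000000 mouse reads. The main model is the one with most reads over both libraries. Unannotated spliced models were matched between libraries by their introns. Unannotated models of 1 exon were kept apart by library. Each member's annotated transcript was compared with GENCODE M21 transcripts on the plus strand with megablast (BLAST 2.17.0).

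The libraries were compared with an exact binomial test (SciPy 1.17.1), tested on simulated data. The labels name separate animals under a shared donor entry, and the p-values cover counting error between these libraries only. Size factors of edgeR 4.0.16 and DESeq2 1.42.0 served as alternatives. Differences in levels between genes are described, with no test.

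The members and lists were chosen with earlier results of these data known. Named genes are the 20 highest members, up to 5 per gene type, those called between libraries, the 5 with most reads on unannotated spliced models, with most exons and with the longest models, and those at the threshold. Gapdh copies, other examples of pairs, Gm8116 and overlapping genes were named after their values were seen.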

Additional observations from a re-analysis of the deposited data

How the results depend on the processing

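With a minimum of 50 reads there were 47 members and with 10 reads 196. The share with a main model of 1 exon was then 91.5% and 64.8%, the median length 604 and 950.5 nt, and the annotated share of reads 97.5% and 91.8%. Leaving out 1 library in turn, with members chosen on the other at the same minimum, gave 60 to 63 members, 84.1% to 88.3% of 1 exon, 629 to 678 nt, 96.0% to 97.0% annotated and a sum of 8151 to 9186 CPM. The sum was 8333 CPM with a minimum of 50, 7810 CPM without Gm12671 and 5053 CPM without the 9 Gapdh copies, an alternative chosen after seeing the data. Weighting by reads gave 93.1% of 1 exon and 1002 nt. With annotated transcripts only, these were 87.1% and 648 nt. Leaving out genomic models gave 750 nt. The annotated share with equal weights was 75.6%. The share overlapping another gene was 21.5% by span on the same strand, 13.2% by exons and 33.9% on the opposite strand. Calls between libraries numbered 2 of 47 members with a minimum of 50 reads, which leaves fewer members to test, beside 3.20% of all genes tested. Without a limit on fold they numbered 15 of 121, beside 9.11% of all genes. Under the other 8 settings they numbered 4 to 7, with 93 to 196 members tested and 2.12% to 3.09% of all genes called. With annotated transcripts only, 4 were called, 3 of them among the 6, since Gm20659, Gm21811 and Gm6829 have no annotated read. Near-identical transcripts were found for 69 members at 99% identity over 95% of the length and for 80 at 90% identity, limits also chosen after seeing the data. No paired analysis was possible because the series has 1 group. For the members near 20 reads, depth limits which genes enter the list and which differences can be called.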
